A study of Homo sapiens with 4 samples.

Results

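A total of 68 gene symbols of the matrix metalloprotease and ADAM families and their inhibitors were followed, out of 28930 symbols in the count table. They were taken by symbol, as every symbol that begins with ADAM, ADAMTS, MMP or TIMP and a number. The set held 24 MMP symbols, 21 ADAM symbols, 19 ADAMTS symbols and 4 TIMP symbols. Among them, MMP24-AS1 names an antisense transcript and ADAM20P1 a pseudogene.

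The libraries came from MDA-MB-231, an established human breast cancer cell line of the triple-negative, mesenchymal type. The knockdown group was given siRNA against hTrmt13, a tRNA ribose methyltransferase encoded by TRMT13, and the control group a control siRNA, with 2 libraries each. The comparison asks which transcripts depend on hTrmt13, as part of a search for genes it may regulate in transcription. All values describe 1 cell line, and no source used here states the siRNA sequence, its dose or the time after treatment.

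Matrix metalloproteases are zinc-dependent enzymes made as inactive precursors, either secreted or held at the plasma membrane, and together they cut most proteins of the extracellular matrix. ADAMs are membrane proteases that release the outer parts of growth factors, receptors and adhesion proteins, a step called shedding, and the secreted ADAMTS enzymes trim proteoglycans and procollagens. TIMPs are small secreted proteins that sit in the active site of these enzymes, and in invasive breast cancer cells the membrane-bound proteases are known for clearing matrix at the cell front.

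Total counts ran from 9777267 to 13098985 per library, and the members took 0.164% of all counts. TRMT13 stood at 3.52 and 4.79 CPM (TMM-scaled read counts relative to library size) in the knockdown libraries, against 14.9 and 18.9 CPM in the control libraries, a 4.05-fold fall (edgeR quasi-likelihood test, adjusted p = 0.0399). Luminal markers were mixed: ESR1 and PGR had no count in any library and CDH1 had 1 count in each group, while keratins were well expressed. KRT8 stood between 507 and 696 CPM, KRT18 between 292 and 455 CPM and KRT19 between 282 and 324 CPM. The 9 luminal markers summed to between 1099.8 and 1497 CPM with 0 called. The 5 markers of a mesenchymal breast line summed to between 2859.8 and 3729 CPM with 0 called, and VIM among them stood between 1769 and 1845 CPM. Blood cell markers summed to between 0.851 and 1.15 CPM, with CD3E and HBB among those at 0. Of 6 fibroblast and endothelial markers that were counted, 2 were tested, their sum was 13.3 and 13.8 CPM in knockdown, against 32.5 and 28.7 CPM in control, and DCN was at 0. CDH5, the endothelial cadherin, was the 1 called gene among them, with 2 counts in knockdown and 112 in control. The part of this marker difference in the results below was not tested. Nothing in the labels says that the libraries of a group came from separate cultures, so p-values cover only how far these samples differ from each other, and that spread may be technical.

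Many of these genes were silent or nearly so in this line, which was no trait of the set. Over the whole table, 10298 of 28930 symbols had no count and 13022 were tested. No read was counted for 14 of the 68, and another 22 had counts too low for the filter (filterByExpr, minimum count 10), which left 32 for testing. Those 32 were 8 of 24 MMP symbols, 10 of 21 ADAMs, 10 of 19 ADAMTSs and all 4 TIMPs. A count of 0 in a group allows up to 0.126 CPM in knockdown and 0.133 CPM in control (3 counts over the group's depth, for counting error only). Per length of exon (CPM per kb, mean over all libraries), the highest 6 members were ADAM9, TIMP1, MMP14, ADAM15, TIMP2 and MMP24-AS1. ADAM9 averaged 60.9 CPM per kb in knockdown and 51.8 CPM per kb in control, and MMP14 averaged 27.7 CPM per kb in knockdown and 66.1 CPM per kb in control, so members in this order stood in a different order in each group.

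**Figure D1:**
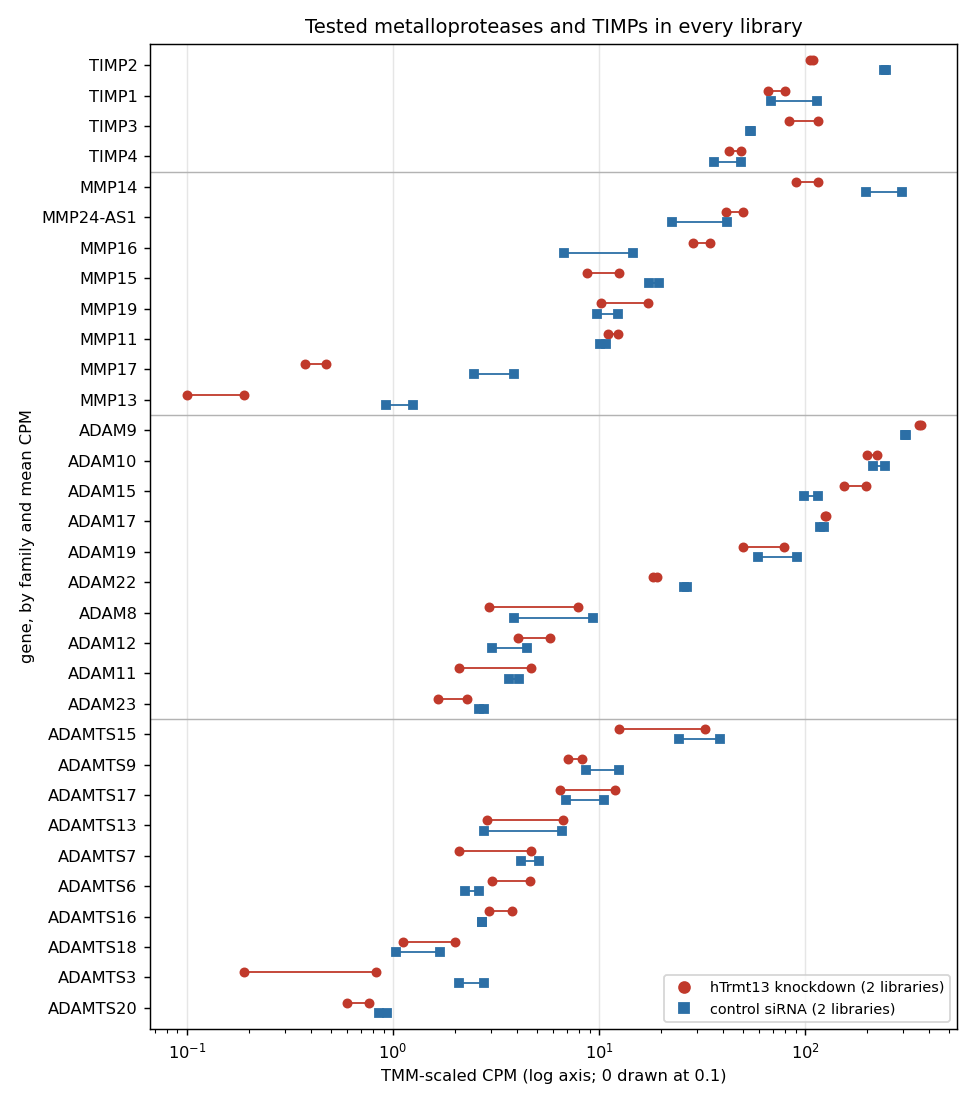
TMM-scaled CPM (log axis) of the 32 tested members in every library, by family and mean level, with knockdown libraries as circles and control libraries as squares, and a line joining the 2 libraries of a group. TIMP2, MMP14 and MMP17 lie lower in both knockdown libraries and MMP16 and TIMP3 higher, while ADAM10, ADAM19 and TIMP1 overlap between the groups. A value of 0 (MMP13 in 1 knockdown library) is drawn at 0.1.

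Of the 32 tested members, 2 fell in the knockdown and 0 rose: TIMP2, an inhibitor, and MMP17, a protease tethered to the membrane by a lipid anchor. The called share was 6.25% of the members, where 2.99% of all 13022 tested genes were called, 1.03% higher and 1.96% lower (edgeR, adjusted p below 0.05 over all genes). At an unadjusted p below 0.05 there were 9 members, or 28.1%, against 24.0% of all tested genes, so the set as a whole stood near the background. With the replicate number as a block, a fit whose results stand with the alternatives, 40.1% of all tested genes were called. In that fit TIMP3, ADAM15, MMP16 and MMP24-AS1 were called higher. TIMP2, MMP17, MMP13, MMP14, MMP15, ADAM22, ADAMTS3 and ADAMTS15 were called lower. Without the block, the median log2 fold change of the tested members was -0.16, where that of all tested genes was 0.01, with 15 members above 0 and 17 below. The groups did not overlap for 18 members, 8 higher and 10 lower, a share of 56.2% where all tested genes gave 54.3%, 27.5% higher and 26.8% lower. By family, 5 of 8 tested MMPs, 2 of 4 TIMPs, 1 of 10 ADAMs and 1 of 10 ADAMTSs had an unadjusted p below 0.05. Among these, MMP13, MMP17 and ADAMTS3 passed the count filter only through their control libraries, where they were higher. The contrast between families thus depends in part on the filter, and it was not itself tested.

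**Figure D2:**
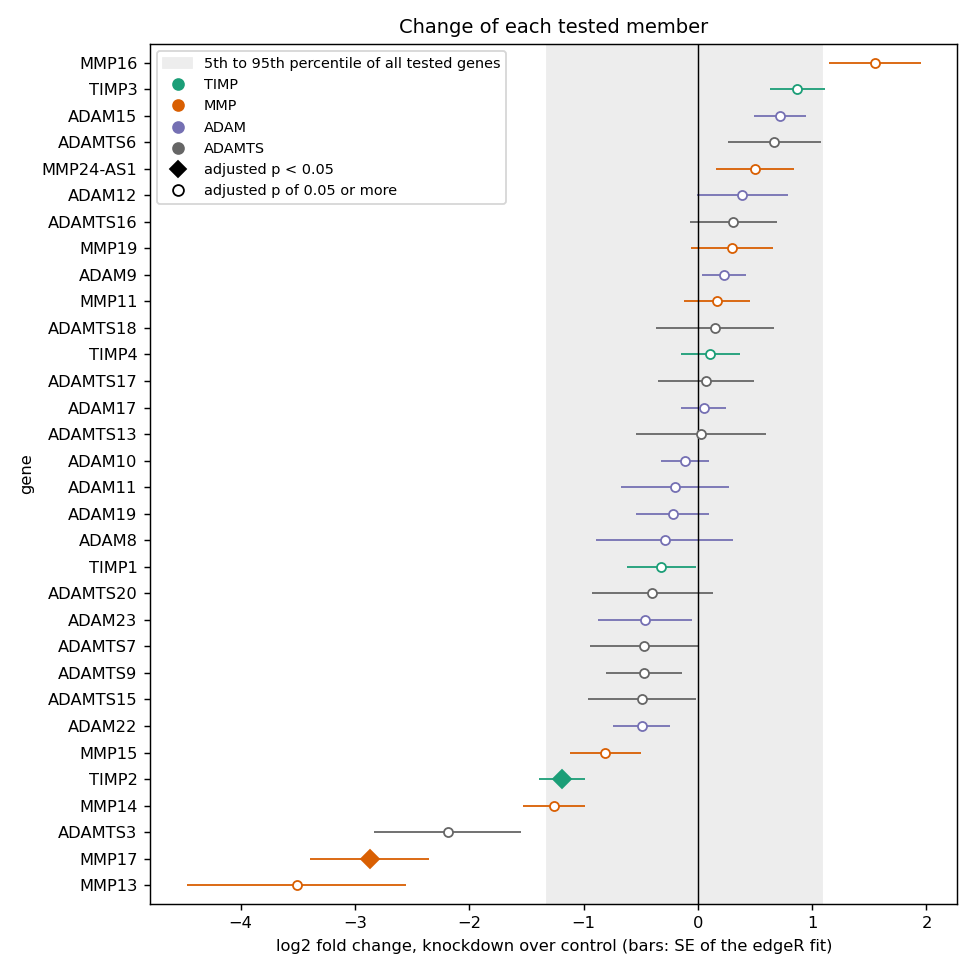
Log2 fold change of knockdown over control for each of the 32 tested members, with the SE of the edgeR fit, coloured by family, and the range from the 5th to the 95th percentile of all tested genes (-1.32 to 1.09) in grey. Filled diamonds mark the 2 called members, TIMP2 and MMP17, both lower in knockdown, while MMP13, ADAMTS3 and MMP16 lie outside the grey range without passing the test.

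Of the 4 inhibitors, TIMP2 fell and the others did not pass the test. TIMP2, the inhibitor that also bridges MMP14 to the MMP2 precursor, had 109 and 106 CPM in the knockdown libraries, against 242 and 247 CPM in the control libraries. The groups were far apart and the libraries of each lay close together. TIMP2 thus averaged 108 ± 2.19 CPM in knockdown and 245 ± 3.66 CPM in control (SD, n = 2 each), a 2.28-fold fall (log2 fold change -1.19, SE 0.20, edgeR adjusted p = 0.0402). In the reference annotation 367 exon bases of TIMP2 are shared with an antisense transcript, so some reads may belong to that transcript. Without knockdown replicate 2 this call ended, at a log2 fold change of -1.16 and an edgeR adjusted p of 0.0533. In bulk libraries such as these, fewer cells with a transcript and less of it in each cell cannot be told apart.

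TIMP3, which binds to the matrix and is the main natural inhibitor of ADAM17, had 115 and 83.9 CPM in knockdown, against 54.4 and 54.2 CPM in control. Both knockdown libraries lay above both control libraries, but the difference did not pass the test (log2 fold change 0.87, SE 0.24, edgeR adjusted p = 0.0995). The fit with the replicate number as a block, one of the alternatives, called TIMP3 higher (edgeR adjusted p = 2.10e-04). TIMP1, the inhibitor that also binds the MMP9 precursor, had 79.9 and 66.0 CPM in knockdown, against 114 and 68.2 CPM in control, and the groups overlapped (log2 fold change -0.32, SE 0.30, edgeR adjusted p = 0.558). TIMP4 had 42.8 and 49 CPM in knockdown, against 36.1 and 49 CPM in control, again with overlap (log2 fold change 0.11, SE 0.26, edgeR adjusted p = 0.838).

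Counted per length of exon, the make-up of the inhibitors differed between the groups. TIMP2 made up 20.2% and 21.8% of the summed TIMP level (CPM per kb) in the knockdown libraries, against 34.7% and 40.8% in the control libraries. TIMP3 made up 18.9% and 15.3% in knockdown, against 6.90% and 7.91% in control. The ratio of TIMP3 to TIMP2 on that scale was 0.934 and 0.70 in knockdown and 0.199 and 0.194 in control. The groups were thus apart, which follows from the values of TIMP2 and TIMP3 given above. The summed TIMP level was 132 and 119 CPM per kb in knockdown, against 171 and 149 CPM per kb in control. With 2 libraries a group, an exact two-sided permutation test of such a single value cannot give a p below 0.333, so these shares are given as values. Lengths are those of all annotated exons in GENCODE release 29, which may differ from the annotation the authors counted on.

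Of the membrane-type MMPs, 1 fell and the others did not pass the adjusted threshold. All 4 tested genes of this class of 6 lay outside the range of the other group, 1 higher and 3 lower, with an unadjusted p below 0.05, where 54.3% of all tested genes did not overlap and 24.0% had such a p. MMP17, the lipid-anchored MT4-MMP, had 0.475 and 0.375 CPM in the knockdown libraries, against 3.86 and 2.48 CPM in the control libraries. These levels rest on 10 counts in knockdown and 69 in control, a depth-scaled ratio of 7.32 in favour of control (95% exact binomial counting interval 3.75 to 15.9, for counting error only). In the fit MMP17 fell 7.31-fold (log2 fold change -2.87, SE 0.52, edgeR adjusted p = 0.0440). MMP17 passed the count filter only through its control libraries. The call ended without knockdown replicate 2 (edgeR adjusted p = 0.0902) and in limma-voom (log2 fold change -2.74, limma adjusted p = 0.0538).

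MMP14, or MT1-MMP, cuts fibrillar collagen at the cell surface and activates the MMP2 precursor together with TIMP2. It had 116 and 90.7 CPM in knockdown, against 296 and 198 CPM in control. Both knockdown libraries lay well below both control libraries, and the control libraries lay further from each other than the groups did at their nearest. The difference missed the threshold (log2 fold change -1.26, SE 0.27, edgeR adjusted p = 0.0607), and MMP14 was called by the DESeq2 Wald test (adjusted p = 0.00259). The library names in the labels run in consecutive pairs by replicate number, and within those pairs the log2 difference of MMP14 was -1.35 and -1.12. The fit with these numbers as a block, which called MMP14, stands with the alternatives. MMP15, or MT2-MMP, had 12.5 and 8.76 CPM in knockdown, against 19.6 and 17.5 CPM in control (log2 fold change -0.81, SE 0.31, edgeR adjusted p = 0.175). MMP16, or MT3-MMP, lay the other way, with 28.6 and 34.6 CPM in knockdown, against 6.78 and 14.6 CPM in control (log2 fold change 1.55, SE 0.40, edgeR adjusted p = 0.0806, DESeq2 adjusted p = 0.00564). Its 2 control libraries lay far apart, and both were below the knockdown libraries.

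The 2 untested genes of this class had few reads. MMP24, or MT5-MMP, known mainly from brain, had 12 and 7 counts in the knockdown libraries and 1 count in each control library, a depth-scaled ratio of 8.96 with a counting interval of 2.16 to 79.3. That interval covers counting error only, not the spread between libraries. MMP25, the other lipid-anchored member, had 0 counts in knockdown and 5 in control, where the interval of the ratio included 1 (0 to 1.03). MMP24-AS1, an antisense transcript named after MMP24, had 50.2 and 41.1 CPM in knockdown, against 42.0 and 22.5 CPM in control, with overlap (log2 fold change 0.50, SE 0.34, edgeR adjusted p = 0.413). No source used here states the strand setting of the counting, which matters where exons of opposite strands overlap. The reference annotation lists no shared exon bases between MMP24 and MMP24-AS1. It lists 162 shared bases between MMP24 and another antisense transcript, 725 between MMP25 and MMP25-AS1, and 118 between MMP16 and an antisense transcript. Some reads of these genes may therefore belong to those transcripts.

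Per length, MMP14 dominated the membrane-type class in both groups. It made up 84.1% and 82.0% of the class in knockdown, against 92.1% and 89.2% in control. MMP16 made up 6.71% and 10.1% in knockdown, against 0.683% and 2.13% in control. The class summed to 36.9 and 29.6 CPM per kb in knockdown, against 86.0 and 59.4 CPM per kb in control. MMP14 and TIMP2, which act as partners in MMP2 activation, kept overlapping ratios on this scale, at 1.16 and 0.934 in knockdown and 1.33 and 0.873 in control. MMP2 itself, a gelatinase, had 4 counts in the knockdown libraries and 1 in the control libraries, and no difference could be detected at this depth.

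**Figure D3:**
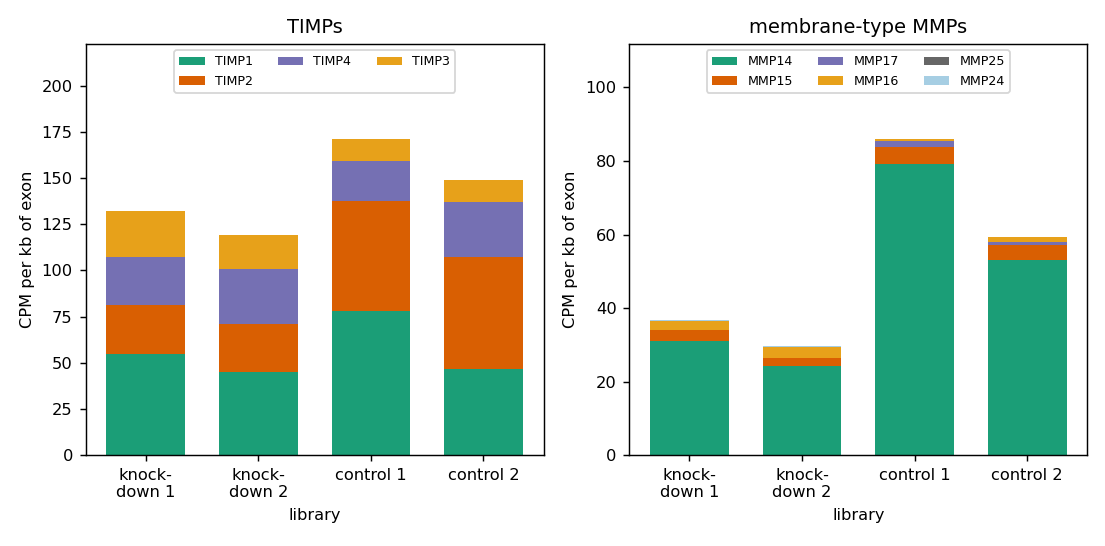
CPM per kb of exon, stacked by gene, for the TIMPs (left) and the membrane-type MMPs (right) in each of the 4 libraries. The TIMP2 segment is shorter and the TIMP3 segment taller in both knockdown libraries, and the MMP14 bar is shorter in both.

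Of the secreted MMPs, those of the chromosome 11 cluster were close to silent. In the reference annotation, 9 MMP genes lie there next to each other, in the order MMP7, MMP20, MMP27, MMP8, MMP10, MMP1, MMP3, MMP12 and MMP13. They had 30 counts in the knockdown libraries and 48 in the control libraries, over all 9 genes, and 4 of them had none. The protein-coding genes on either side were well expressed, TMEM123 with 2726 counts in knockdown and 5660 in control, and DCUN1D5 with 1425 counts in knockdown and 982 in control. MMP1, the interstitial collagenase, had 4 and 6 counts in the knockdown libraries and 10 and 5 in the control libraries. Its depth-scaled ratio of 0.629 had a counting interval of 0.253 to 1.5, and no difference could be detected at this depth.

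MMP13, collagenase 3, was the 1 gene of the cluster that passed the filter, and it did so through its control libraries. It had 2 and 0 counts in knockdown and 12 in each control library, a depth-scaled ratio of 12.7 in favour of control with a counting interval of 3.16 to 111. The difference did not pass the test (log2 fold change -3.51, SE 0.96, edgeR adjusted p = 0.0953). Outside the cluster, MMP9, the second gelatinase, had 0 counts in knockdown and 1 in control. MMP28, epilysin, had 2 counts in knockdown and 11 in control (ratio 5.83 in favour of control, counting interval 1.27 to 54.1). MMP21 had 10 counts in knockdown and 3 in control (ratio 3.14, interval 0.809 to 17.8). Neither MMP28 nor MMP21 was tested, and these intervals cover counting error only.

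A pair of secreted MMPs was expressed at a similar level in both groups. MMP11, stromelysin 3, which is known from tumour stroma and is activated inside the cell by furin, had 12.3 and 11.1 CPM in knockdown, against 10.8 and 10.1 CPM in control (log2 fold change 0.17, SE 0.29, edgeR adjusted p = 0.768). MMP19 had 17.2 and 10.2 CPM in knockdown, against 12.4 and 9.75 CPM in control, with overlap (log2 fold change 0.30, SE 0.36, edgeR adjusted p = 0.649).

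Promoter windows of 5 members are shown here. MMP14 and MMP15 were lower in both knockdown libraries, TIMP3 and ADAM15 were higher in both, and MMP10 belongs to the chromosome 11 cluster. None of these was called in the edgeR fit without the block, and no window was found for the called members, TIMP2 and MMP17. Each sequence shown is the RefSeq window on build GRCh38.p14 from 250 bases before to 50 bases after the gene's start, written 5′ to 3′ on the gene's strand. The windows are chr14:22836335-22836634 (plus strand) for MMP14, chr16:58025504-58025803 (plus) for MMP15, chr22:32801455-32801754 (plus) for TIMP3, chr1:155051066-155051365 (plus) for ADAM15 and chr11:102780579-102780878 (minus) for MMP10. Capitals mark, on either strand, the AP-1 element TGANTCA, the TATA box TATAAA, the GC box GGGCGG and the SNAIL-type E-box CACCTG.
MMP14: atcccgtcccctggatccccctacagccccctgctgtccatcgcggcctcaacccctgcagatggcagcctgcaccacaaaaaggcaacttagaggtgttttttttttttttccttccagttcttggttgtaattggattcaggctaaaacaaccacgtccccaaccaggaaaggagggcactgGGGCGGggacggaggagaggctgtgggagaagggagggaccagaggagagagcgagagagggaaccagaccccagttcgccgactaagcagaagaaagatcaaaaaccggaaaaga
MMP15: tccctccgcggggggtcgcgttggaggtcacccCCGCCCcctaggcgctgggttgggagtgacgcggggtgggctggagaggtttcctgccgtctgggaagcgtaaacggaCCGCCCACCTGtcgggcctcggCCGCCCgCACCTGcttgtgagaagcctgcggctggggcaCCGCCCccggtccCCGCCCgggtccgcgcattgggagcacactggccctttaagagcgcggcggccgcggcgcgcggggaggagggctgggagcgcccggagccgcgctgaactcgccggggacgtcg
TIMP3: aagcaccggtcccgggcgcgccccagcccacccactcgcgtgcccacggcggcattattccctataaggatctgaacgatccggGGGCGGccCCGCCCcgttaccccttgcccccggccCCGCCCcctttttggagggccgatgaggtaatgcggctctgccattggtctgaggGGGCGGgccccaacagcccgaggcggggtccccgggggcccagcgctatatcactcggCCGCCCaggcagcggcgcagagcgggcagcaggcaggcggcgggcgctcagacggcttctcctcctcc
ADAM15: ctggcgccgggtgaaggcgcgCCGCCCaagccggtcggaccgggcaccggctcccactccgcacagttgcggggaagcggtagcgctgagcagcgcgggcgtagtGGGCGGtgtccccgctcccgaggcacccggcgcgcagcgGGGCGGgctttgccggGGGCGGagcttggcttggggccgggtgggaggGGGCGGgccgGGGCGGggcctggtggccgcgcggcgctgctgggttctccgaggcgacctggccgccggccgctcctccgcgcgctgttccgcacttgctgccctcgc
MMP10: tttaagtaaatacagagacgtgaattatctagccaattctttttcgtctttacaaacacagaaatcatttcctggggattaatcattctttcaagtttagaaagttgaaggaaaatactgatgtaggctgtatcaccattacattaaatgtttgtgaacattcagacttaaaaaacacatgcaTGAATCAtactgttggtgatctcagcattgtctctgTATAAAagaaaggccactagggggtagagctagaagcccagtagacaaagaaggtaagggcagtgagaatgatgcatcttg

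In these windows MMP14 held 1 GC box, 66 bases before the start, while TIMP3 and MMP15 held 5 each and ADAM15 held 6. MMP15 also held 2 E-boxes, one of which shares bases with a GC box. MMP10 held an AP-1 element 67 bases before the start and a TATA box 31 bases before it, and no GC box. The MMP1 group of genes is the textbook case of AP-1 control through such an element.

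A promoter window was found for 40 of the 68 members. Of these, 22 passed the count filter and 18 did not. A TATA box was present in 0 of the 22 and 8 of the 18, against 11.5% of all 35116 windows. The AP-1 element was in 0 of the 22 and 4 of the 18, against 7.71% of all windows, and the GC box in 20 of the 22 and 7 of the 18, against 45.0%. The E-box was in 5 of the 22 and 4 of the 18, against 20.6%. The median share of G and C was 71.8% in the members that passed, 49% in those that did not and 58.7% over all windows. Those that did not pass ranged widely, from 33.3% in MMP27 to 80.3% in ADAMTS2, with MMP10 at 36.3%. Of them, ADAMTS2, ADAMTS10, ADAMTS14, MMP23B and MMP24 lay above the median of those that passed. Whether genes outside the set differ by the filter in the same way was not tested. These are descriptions of letters in a short window, and an absent match says nothing of the factor.

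**Figure D4:**
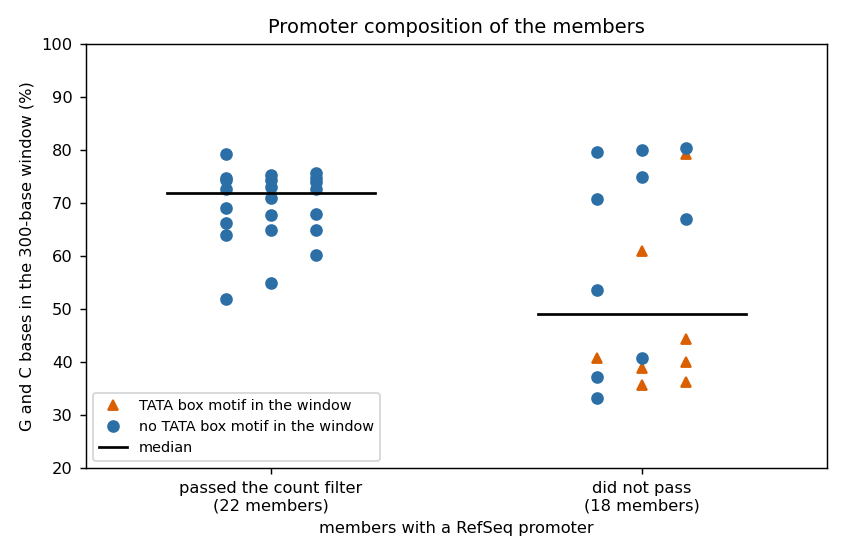
Share of G and C bases (%) in the 300-base promoter window of the 40 members with a RefSeq window, for the 22 that passed the count filter (left) and the 18 that did not (right). Triangles mark the 8 windows with a TATA box motif, all on the right, circles the rest, and horizontal bars the medians of 71.8% and 49%.

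Of the 10 tested ADAMs, 0 passed the adjusted threshold and 1 had an unadjusted p below 0.05 in edgeR, where 2.99% and 24.0% of all tested genes did. The smallest edgeR adjusted p among them was 0.129, that of ADAM15, a disintegrin protease of cell adhesion and membrane traffic. ADAM15 had 198 and 154 CPM in knockdown, against 99.3 and 115 CPM in control (log2 fold change 0.72, SE 0.23). Both knockdown libraries lay above both control libraries.

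The chief sheddases, ADAM10 and ADAM17, stood at similar levels in both groups. ADAM10, which cuts Notch receptors and cadherins, had 200.0 and 223 CPM in knockdown, against 214 and 244 CPM in control (log2 fold change -0.11, SE 0.21, edgeR adjusted p = 0.782). ADAM17, which releases TNF and the ligands of the EGF receptor, had 125 and 126 CPM in knockdown, against 124 and 118 CPM in control (log2 fold change 0.05, SE 0.20, edgeR adjusted p = 0.906). In the reference annotation its exons share 1257 bases with the antisense gene IAH1, so some reads may belong to that gene. On the per-length scale the ratio of ADAM17 to its inhibitor TIMP3 was 1.13 and 1.57 in knockdown and 2.38 and 2.27 in control, and the groups did not overlap. As ADAM17 stood at similar levels, that separation repeats the one given for TIMP3, and the ratio was not tested.

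ADAM9, a widely expressed sheddase, had 358 and 364 CPM in knockdown, against 306 and 309 CPM in control (log2 fold change 0.23, SE 0.19, edgeR adjusted p = 0.513). On the per-length scale it stood with ADAM15 at the top of the ADAMs, at 60.9 and 53.8 CPM per kb in knockdown and 51.8 and 32.7 CPM per kb in control (group means, ADAM9 before ADAM15). All ADAMs with a protease site together summed to 179 and 163 CPM per kb in knockdown, against 143 CPM per kb in each control library. The other tested ADAMs with a protease site, ADAM8, ADAM12 and ADAM19, had groups that overlapped.

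The 3 tested ADAMs that lack a working protease site, ADAM11, ADAM22 and ADAM23, are known from neurons as receptors of LGI proteins. All 3 had log2 fold changes below 0, between -0.49 and -0.20, and none passed the edgeR test. ADAM22 had 18.2 and 19.2 CPM in knockdown, against 26.7 and 25.8 CPM in control (log2 fold change -0.49, SE 0.25, edgeR adjusted p = 0.276), with groups that did not overlap. ADAM23 had 2.28 and 1.65 CPM in knockdown, against 2.61 and 2.78 CPM in control (log2 fold change -0.46, SE 0.41, edgeR adjusted p = 0.536). ADAM11 overlapped between the groups.

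The ADAMTS family stood at low levels, with its 19 symbols summing to between 43.7 and 80.8 CPM in a library. Of its 10 tested members, 0 passed the adjusted threshold and 1 had an unadjusted p below 0.05 in edgeR, against the same 2.99% and 24.0%. That one was ADAMTS3, which trims procollagen and takes part in the maturation of VEGFC. It had 0.190 and 0.824 CPM in knockdown, against 2.09 and 2.78 CPM in control, from 13 counts in knockdown and 56 in control (log2 fold change -2.19, SE 0.64, edgeR adjusted p = 0.111). The counts were 2 and 11 in the knockdown libraries and 20 and 36 in the control libraries, so the groups did not overlap, and the gene passed the filter through its control libraries. The other procollagen enzymes were below the filter and had few counts, ADAMTS14 with 4 in knockdown against 13 in control (ratio 3.45 in favour of control, counting interval 1.06 to 14.5) and ADAMTS2 with 2 against 7 (3.71, interval 0.707 to 36.6). Neither was tested, and the intervals cover counting error only, not the spread between libraries.

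Among the proteoglycan-cleaving enzymes, ADAMTS15 had 32.6 and 12.5 CPM in knockdown, against 38.6 and 24.4 CPM in control (log2 fold change -0.49, SE 0.47, edgeR adjusted p = 0.576). Its knockdown libraries were further apart than the group means, and replicate 1 was the higher in each group. Within the pairs by replicate number the log2 difference of ADAMTS15 was -0.24 and -0.96. The fit with that number as a block called it lower (edgeR adjusted p = 0.0189). ADAMTS9 had 7.04 and 8.24 CPM in knockdown, against 8.66 and 12.5 CPM in control (log2 fold change -0.47, SE 0.33, edgeR adjusted p = 0.439). ADAMTS1 had 9 and 11 counts in the knockdown libraries and 0 and 12 in the control libraries, and it was not tested.

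Of the rest of the family, ADAMTS6 had 3.04 and 4.64 CPM in knockdown, against 2.61 and 2.24 CPM in control (log2 fold change 0.67, SE 0.41, edgeR adjusted p = 0.364). ADAMTS13, which cuts von Willebrand factor, had 6.66 and 2.85 CPM in knockdown, against 6.58 and 2.78 CPM in control (log2 fold change 0.03, SE 0.57, edgeR adjusted p = 0.984). ADAMTS17 had 12.0 and 6.44 CPM in knockdown, against 10.6 and 6.88 CPM in control (log2 fold change 0.07, SE 0.42, edgeR adjusted p = 0.941). In both genes the libraries within a group lay further apart than the group means, and replicate 1 was the higher in each group. Within the pairs by replicate number the log2 difference was 0.02 and 0.03 for ADAMTS13 and 0.17 and -0.09 for ADAMTS17.

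Genes that act on these proteases or are acted on by them were read from 4 lists. Among 30 tested genes of activation and control, 2 fell and 0 rose, with a median log2 fold change of -0.21. Of all tested genes, 1.96% fell and 1.03% rose, which is the background for this list and those below. Both called genes of this list passed the count filter only through their control libraries, where they were higher. PRSS1, a trypsinogen whose active form can activate MMP precursors, fell 19.7-fold (0.285 and 0.749 CPM in knockdown, against 12.7 and 8.74 CPM in control, edgeR adjusted p = 0.0272), and its reads may be shared with near-identical trypsinogen genes. ADAMTSL4, an ADAMTS-like matrix protein without protease activity, fell 10.3-fold (0.761 and 0.599 CPM in knockdown, against 9.92 and 4.33 CPM in control, edgeR adjusted p = 0.0399).

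Among 28 tested membrane proteins known to be shed by ADAMs or membrane MMPs, 4 fell and 0 rose, with a median of -0.53. NOTCH2, a receptor cut by ADAM10, fell 2.99-fold (160.2 and 187 CPM in knockdown, against 499.8 and 538 CPM in control, edgeR adjusted p = 0.0287). Its ligand JAG1 fell 3.02-fold (34.7 and 33.0 CPM in knockdown, against 125 and 79.4 CPM in control, edgeR adjusted p = 0.0428). CXCL16, a chemokine released from the membrane by ADAM10, fell 9.23-fold (0.951 and 0.674 CPM in knockdown, against 8.87 and 6.19 CPM in control, edgeR adjusted p = 0.0296). The adhesion molecule ICAM1 fell 8.71-fold (1.62 and 1.72 CPM in knockdown, against 21.0 and 8.43 CPM in control, edgeR adjusted p = 0.0399). In this list 20 of 28 values were below 0, where 6465 of 13022 tested genes were. An unadjusted edgeR p below 0.05 was found for 53.6% of the list and for 24.0% of all tested genes. The list was chosen with earlier results of these data known, and CXCL16 and BTC passed the count filter through their control libraries. No conclusion is therefore drawn from these shares.

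Among 21 tested matrix proteins cleaved by MMPs or ADAMTSs, 2 rose and 1 fell, with a median of -0.17. Tenascin C, encoded by TNC, rose 4.98-fold (238 and 192 CPM in knockdown, against 51.3 and 35.2 CPM in control, edgeR adjusted p = 0.0264). COL5A2, a fibrillar collagen chain, rose 11-fold, with 94 counts in knockdown and 8 in control (4.28 and 3.67 CPM in knockdown, against 0.209 and 0.464 CPM in control, edgeR adjusted p = 0.0357). SPARC, a collagen-binding glycoprotein, fell 2.30-fold (34.7 and 30.1 CPM in knockdown, against 75.2 and 73.9 CPM in control, edgeR adjusted p = 0.0476).

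Among 22 tested transcription factors known at MMP promoters, 1 fell and 0 rose, with a median of -0.05. ELF3, an epithelial ETS factor, fell 13.7-fold (0.285 and 0.524 CPM in knockdown, against 8.56 and 3.17 CPM in control, edgeR adjusted p = 0.0435). None of the 7 JUN and FOS genes, the subunits of AP-1, passed the edgeR test: JUNB had a log2 fold change of -1.51, and JUN, JUND, FOS, FOSB, FOSL1 and FOSL2 lay between 0.09 and 1.21. Among the called list genes, PRSS1, ADAMTSL4, CXCL16 and ELF3 passed the count filter through their control libraries and COL5A2 through its knockdown libraries. The background for all these counts is the share of 1.03% higher and 1.96% lower among all tested genes.

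**Figure D5:**
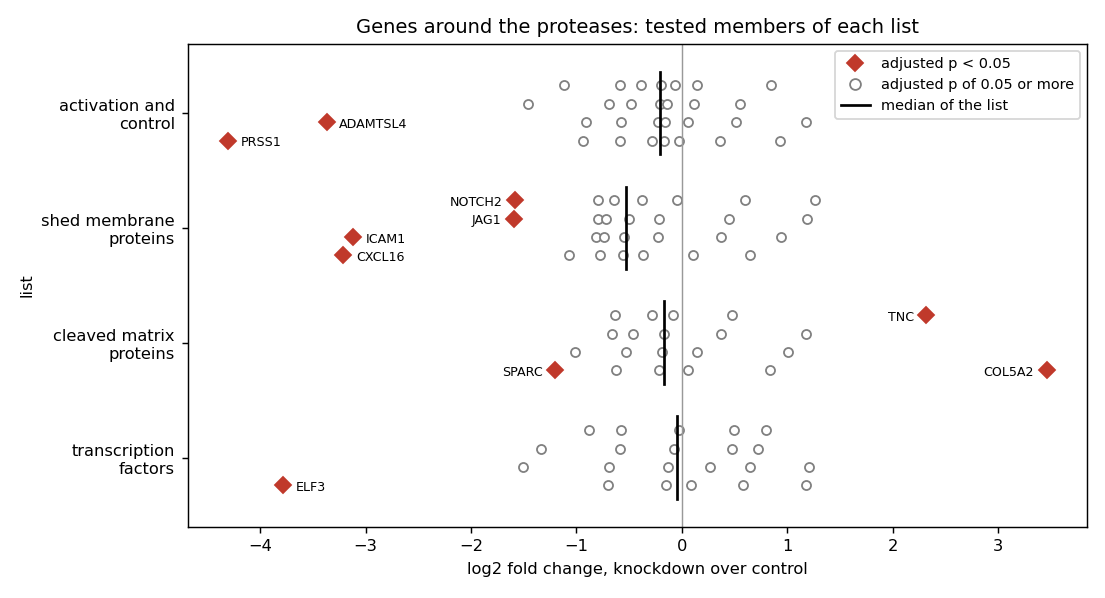
Log2 fold change of knockdown over control for the tested genes of the 4 lists around the proteases, with called genes as filled, named diamonds and the list median as a vertical bar. Called genes lie below 0 in the lists of activation and control, shed membrane proteins and transcription factors, while TNC and COL5A2 lie above 0 and SPARC below 0 among the matrix proteins.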

How the data were processed

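Raw read counts per gene symbol were deposited by the authors for 4 libraries, with totals of 9777267 to 13098985. Per the submitters' processing notes the tools were STAR 2.5.2b, HTSeq 0.6.1, cutadapt and limma, on build GRCh37 (hg19), with no order or role stated. No source used here states the annotation, strand setting or filters. Per the labels' protocols, total RNA went into Illumina TruSeq libraries.

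Counts were tested with edgeR 4.0.16 (R 4.3.3): TMM, filterByExpr (minimum count 10, minimum total 15, 13022 genes kept), quasi-likelihood test, Benjamini-Hochberg adjustment over all genes, called below 0.05. CPM used effective library sizes. Counting intervals are 95% Clopper-Pearson. Alternatives are in the closing section (DESeq2 1.42.0, limma 3.58.1 among them), and the edgeR script was tested on simulated data. Libraries of a group differed by more than sampling noise (44.5 in knockdown and 40.4 in control, as chi-square over degrees of freedom), so each library counted once.

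Members and lists were chosen with earlier results of these data known. By the rule for named genes, values are given for all TIMPs, members called with or without the replicate block, MMP14, MMP2, MMP9, MMP1, ADAM10, ADAM17, the 4 most abundant and the 4 lowest-p members of each protease family, and up to 4 called genes per list, or up to 2 uncalled ones. MMP11, MMP19, MMP21, MMP24, MMP25, MMP28, ADAMTS1, ADAMTS2, ADAMTS14 and the JUN and FOS genes fall outside it and were named after their values were seen.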

Additional observations from a re-analysis of the deposited data

How the results depend on the processing

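Both member calls rest on 2 libraries a group, and that of MMP17 also on few reads (10 in knockdown and 69 in control). A further 22 members had counts too low to test. Over the alternatives, the adjusted p of TIMP2 ran between 1.36e-06 and 0.0533 and that of MMP17 between 3.08e-05 and 0.0902, and neither changed sign. Under DESeq2 size factors and upper-quartile scaling the member calls were 0 higher and 2 lower, as in edgeR with TMM. Upper-quartile scaling gave ADAMTS13 a log2 fold change of -0.00.

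Counts of calls are given as higher, then lower. Without a filter on low counts they were 826 and 1123 for all genes, 2 and 5 for members, 2 and 5 for activation and control, 3 and 9 for shed proteins, 4 and 2 for matrix proteins and 2 and 4 for transcription factors. The DESeq2 Wald test gave 458 and 671 for all genes, 1 higher member (MMP16, adjusted p = 0.00564), 3 lower members (MMP14 added, adjusted p = 0.00259), 1 and 4 for activation and control, 2 higher shed proteins, 4 higher matrix proteins and 3 lower transcription factors. A mean of at least 5 CPM, under which MMP17 was not tested, left 1 lower member, 1 lower gene of activation and control, 1 higher and 0 lower matrix proteins and 0 lower transcription factors. limma-voom left 1 lower member, 1 lower gene of activation and control and 0 lower transcription factors. Library size alone left 0 lower matrix proteins.

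Leaving out 1 library at a time gave 198 to 363 higher and 407 to 572 lower genes, 0 to 1 higher and 0 to 5 lower members, and a member median of -0.39 to 0.05. It gave 0 to 1 and 3 to 4 calls for activation and control, 0 to 2 and 3 to 4 for shed proteins, 2 to 3 and 0 to 4 for matrix proteins, and 0 to 2 and 1 to 2 for transcription factors. The 0 lower members came without knockdown replicate 2 and the 5 without knockdown replicate 1. Signs changed for uncalled members: ADAM8 (-1.16 to 0.47), ADAM11 (-0.87 to 0.28), ADAM19 (-0.58 to 0.13), ADAMTS7 (-1.13 to 0.01), ADAMTS13 (-0.70 to 0.76), ADAMTS15 (-1.33 to 0.05), ADAMTS17 (-0.43 to 0.46), ADAMTS18 (-0.30 to 0.56), MMP19 (-0.11 to 0.64), TIMP1 (-0.64 to 0.10) and TIMP4 (-0.09 to 0.35). The cause was not tested.

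The replicate numbers are shared between groups, and the library names run in consecutive pairs by that number, but no label says that they mark a batch or day, and there are only 2 pairs. Across genes the replicate difference in knockdown correlated with that in control (0.639, over genes, which are not replicates). With the replicate block, edgeR called 2517 genes higher and 2710 lower (40.1% of those tested), 4 members higher and 8 lower, 5 and 10 genes of activation and control, 5 and 14 shed proteins, 5 and 6 matrix proteins and 5 and 7 transcription factors. The members gained, with edgeR adjusted p, were TIMP3 (2.10e-04), ADAM15 (0.00133), MMP16 (1.79e-06) and MMP24-AS1 (0.0143), all higher, and MMP13 (0.00155), MMP14 (8.64e-07), MMP15 (0.00271), ADAM22 (0.0385), ADAMTS3 (7.75e-04) and ADAMTS15 (0.0189), all lower.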
